A study of Mus musculus with 88 samples.

Results

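The lungs of mice whose thyroid region alone had been irradiated were compared with the lungs of sham-irradiated mice, to ask how lung tissue that lay outside the radiation field was transcribed 1 day later. The samples were chosen by their labels: tissue lungs with irradiated area collum (the neck region that holds the thyroid, group A, 3 mice) and tissue lungs without irradiation (5 control mice), which makes 8 of the 88 arrays of the series. All mice were female BALB/c nude animals (CAnN.Cg-Foxn1nu/Crl) of 4 months, which lack a thymus through their Foxn1 genotype and so hold few mature T cells. Group A received 2 Gy of photons from a 4 MV accelerator in a small field over the neck, and the controls were given the same anaesthetics, Ketaminol and Domitor, but 0 Gy. The lungs were taken after 24 h. The lungs of group B (thorax and abdomen irradiated, 3 mice) and group C (collum, thorax and abdomen irradiated, 3 mice), which lay inside the field and also received 2 Gy, served to show where group A differed from directly irradiated lung. Every array is 1 mouse. The dose that reached the lungs of group A by scatter was not analysed here.

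Ionizing radiation breaks DNA, and in a directly hit cell the transcription factor p53 is stabilised and switches on genes that stop the cell cycle, repair DNA or end the cell's life. Among them, Cdkn1a encodes the cyclin-dependent kinase inhibitor p21, and genes of mitosis are shut down where p21 accumulates. Tissue outside the field can still be reached by scattered photons, by signals from irradiated cells, or by hormones of an irradiated gland. The thyroid gland releases thyroxine and triiodothyronine, which act through the nuclear receptors encoded by Thra and Thrb.

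The arrays gave log2 intensities after background correction and quantile normalization within the lungs, and a probe counted as detected on an array at a detection p under 0.01. Between 45.95% and 50.28% of the 25697 probes were detected per lung array (47.58% to 50.28% in group A, 47.09% to 49.22% in controls), and 13356 probes were detected on at least 3 of the 14 lung arrays and were tested. The 324 probes detected on exactly 3 arrays had a median log2 intensity of 5.32, and the 462 probes detected on exactly 2 arrays, just outside the limit, had 5.23. Control replicate 4 and group C replicate 2 stood apart. Control replicate 4 had 115 probes at least 2-fold above all 13 other lungs and 4 at least 2-fold below them, and group C replicate 2 had 36 above and 52 below, with the lowest median correlation with the other lungs (0.954, against 0.955 to 0.976). The other 12 lungs had 0 to 22 above and 0 to 31 below. The list counts against controls that shifted without control replicate 4, and those against group C that shifted without its replicate 2, are given both ways. The precision of every value is limited by how many arrays there were, and the median half-width of the unadjusted 95% interval of a log2 ratio of group A against controls was 0.47. That width is not the size needed for a call, as a ratio of −1.55 (Eef1a1) did not pass the adjusted threshold.

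No transcript passed the threshold for regulation in the lungs of group A against controls. A call needed a p below 0.01 after adjustment over all probes together with a change of 0.58 or more on the log2 scale, up or down, and limma called 0 of 13356 probes (0%), and the smallest adjusted p was 1. At an unadjusted p under 0.05 there were 145 probes (1.09%), 57 higher (0.427%) and 88 lower (0.659%) in group A. The count was 296 without control replicate 5, 228 without replicate 1 of group A and 147 without control replicate 4, with 0 calls each time. The 3 mice of group A lay entirely above or entirely below the 5 controls for 177 probes (1.33%), 85 above (0.636%) and 92 below (0.689%). Without control replicate 4 these were 346 probes (2.59%), where the condition is easier to meet because there are fewer controls. The median of the log2 ratios over all probes was 0.01, and 181 probes reached 0.58 in either direction. Against the directly irradiated lungs limma also called 0 probes (0%), with 573 probes at an unadjusted p under 0.05 against group B (4.29%, smallest adjusted p = 0.0776) and 649 against group C (4.86%, smallest adjusted p = 0.069). Without group C replicate 2 there were 0 calls and 576 such probes against group C (smallest adjusted p = 0.349). In the same limma fit, the smallest adjusted p against the controls was 0.00693 in group B (Top2a, log2 ratio −1.35) and 0.0312 in group C. Directly irradiated lungs of group C thus had no call against controls either, and the absence of calls in group A does not show that its transcripts were unchanged.

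**Figure D1:**
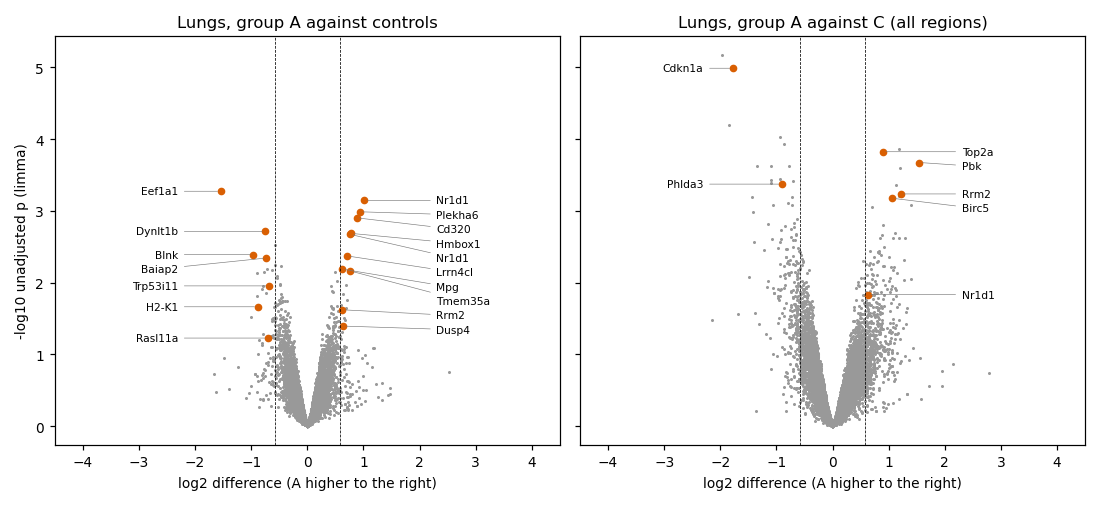
Each grey point is 1 of the 13356 probes, placed by its log2 difference (horizontal axis, group A higher to the right) and by −log10 of limma's unadjusted p (vertical axis), for group A against controls on the left and against group C on the right. Dashed lines stand at a log2 difference of 0.58 in either direction, and orange points are the probes named in the text. The points on the left stay low, with Eef1a1 and Nr1d1 at the top, while on the right Cdkn1a stands above all other named genes.

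The p53 target genes did not separate the lungs of group A from the controls. Of the 32 genes of the list 24 were tested, 12 with a positive and 12 with a negative log2 ratio, 0 called (0% of all probes), 0 at an unadjusted p under 0.05 and 0 without overlap between the groups. The median was −0.02, beside 0.01 over all probes, and the ratios ran from −0.32 (Sesn2, a sestrin that restrains growth signalling) to 0.40 (Ei24, a gene induced by p53 in dying cells). The medians of the same 24 genes were 0.21 in group B and 0.22 in group C, against the same controls. Without control replicate 4, 9 genes of group A were positive and 15 negative, with a median of −0.05.

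Cdkn1a was measured by 3 probes. The brightest read 9.92, 9.61 and 9.35 in group A and 9.77, 9.71, 9.90, 10.45 and 9.31 in the controls. All 3 mice of group A lay within the wider control range, whose top is control replicate 4, and below all mice of group B (11.17, 11.03 and 11.35) and group C (11.29, 11.84 and 11.10). The log2 ratio of group A against controls was −0.20 (SE 0.24, 95% interval −0.71 to 0.31; −0.05 without control replicate 4), and those of the other 2 probes were −0.04 and −0.13. The difference from group B was −1.55 (95% interval −2.12 to −0.98, 2.93-fold lower, adjusted p = 0.128) and that from group C was −1.78 (95% interval −2.35 to −1.21, 3.43-fold lower, adjusted p = 0.069). The other probes gave −1.81 and −1.54 against group B and −1.98 and −1.84 against group C. None of these passed the threshold of 0.01 in the fit with equal weights, although neither interval of the brightest probe reaches 0. When noisier arrays were given less weight, both differences of this probe were called (adjusted p = 0.00343 and 0.00846). No other alternative fit called any probe against group B or C. With the replicate number as a block, limma's smallest adjusted p over all probes was 0.208 against group B and 0.145 against group C. Without group C replicate 2 the difference from group C was −1.57 (adjusted p = 0.349).

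Phlda3, which encodes a pleckstrin-domain protein that holds back Akt signalling, read 9.84, 9.37 and 9.76 in group A and 9.65, 9.99, 9.76, 9.65 and 9.66 in controls. Replicate 2 of group A, at 9.37, lay below every control, and the other mice of group A lay within the control range. The lowest mouse of group B was at 10.58 and the values of group C were 10.27, 10.54 and 10.88, all above every mouse of group A. The ratio of group A against controls was −0.09 (SE 0.18, 95% interval −0.47 to 0.29), with −0.07 for the dimmer probe. The difference from group B was −1.08 (95% interval −1.50 to −0.66, adjusted p = 0.139, and 0.00798 with array weights) and from group C −0.91 (95% interval −1.33 to −0.48, adjusted p = 0.32). Zmat3, a zinc-finger protein that binds RNA, showed a ratio of 0.08 (SE 0.17) in group A against controls, and its difference from group B was −0.82 (adjusted p = 0.561).

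The other p53 targets examined did not separate either, and of those given here Ccng1 and Mdm2 were fixed by name. Ccng1, the cyclin G1 gene, had ratios of −0.04, 0.14 and 0.17 over its 3 probes. Mdm2, whose product marks p53 for degradation, had ratios of 0.00 and −0.11 over 2 probes. Gadd45a, a growth arrest gene, had 0.25 (SE 0.22) for the brightest probe and 0.19 for the other. Dcxr, a carbonyl reductase, had 0.22 (SE 0.20) for the brightest probe and −0.02 for the other. Bax, Gdf15 and Mki67 have no probe in the annotation used here. At an unadjusted p under 0.05, 5 of the 24 targets lay lower than in group B and 0 lay higher, where 2.67% and 1.62% of all probes were. Against group C 4 were lower and 0 higher (3 and 0 without group C replicate 2), where 2.95% and 1.91% of all probes were.

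**Figure D2:**
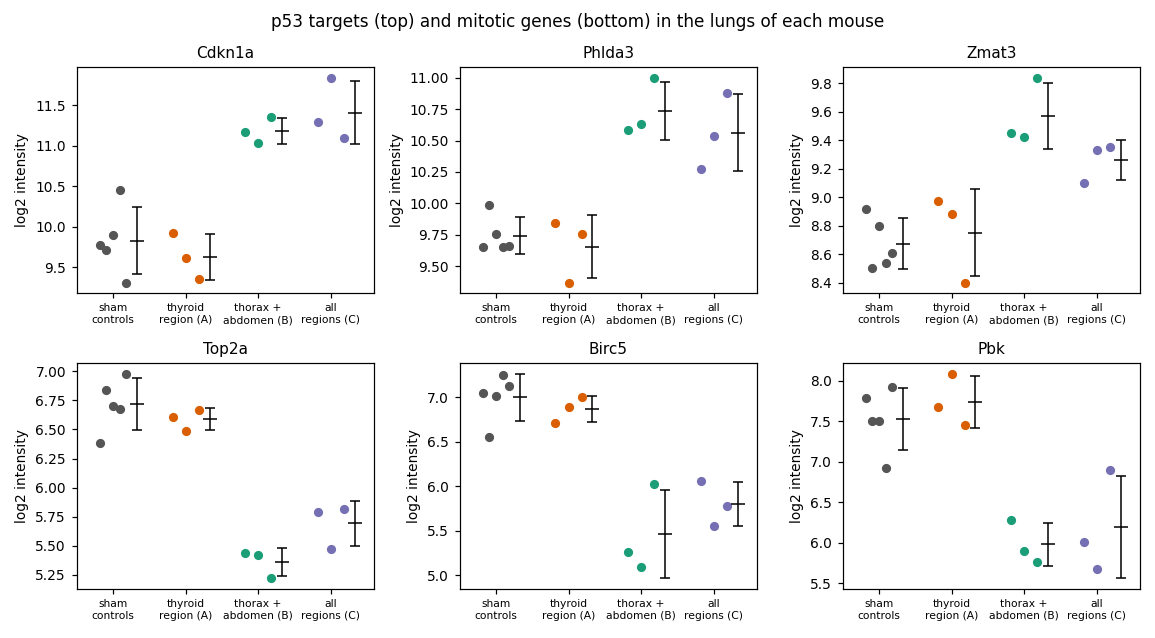
Log2 intensity (vertical axis, a separate scale in each panel) of the brightest probe of Cdkn1a, Phlda3, Zmat3, Top2a, Birc5 and Pbk in the lungs of each mouse, with 1 point per mouse and the group mean with its SD beside the points. The points of group A overlap the controls in all 6 panels and lie apart from groups B and C, below them for Cdkn1a and Phlda3 and above them for Top2a, Birc5 and Pbk.

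Genes of mitosis did not separate group A from the controls, although most of their ratios were negative. Most lay above their level in the directly irradiated lungs, though none passed the threshold in the fit with equal weights. Of 32 listed genes 14 were tested, 3 with a positive and 11 with a negative ratio, 0 called, 0 at an unadjusted p under 0.05 and 0 without overlap. Leaving out control replicate 4 gave 2 positive and 12 negative. The median was −0.13 in group A with and without that lung, and −0.85 in group B and −0.68 in group C against the same controls. In bulk tissue, fewer dividing cells and less RNA per dividing cell cannot be told apart.

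Top2a, the DNA topoisomerase that untangles chromosomes, read 6.61, 6.49 and 6.67 in group A and 6.38, 6.84, 6.70, 6.68 and 6.98 in controls. The group A values fell within the control range, and those of group B (5.44, 5.42 and 5.22) and group C (5.79, 5.47 and 5.82) lay below all 8 of them. The ratio of group A against controls was −0.13 (SE 0.16, 95% interval −0.46 to 0.21). The difference from group B was 1.23 (95% interval 0.85 to 1.60, 2.34-fold higher, adjusted p = 0.0776) and from group C 0.90 (95% interval 0.52 to 1.27, adjusted p = 0.278). Top2a lies close to the background, and without background correction its difference from group B was 0.49, with the authors' normalized values 0.33.

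Birc5, which encodes survivin of the chromosomal passenger complex, averaged 6.86 ± 0.15 (SD, 3 mice) in group A, where the lowest mouse was at 6.71, and ran between 6.55 and 7.25 in the controls, with a ratio of −0.14 (SE 0.22). All 3 mice of group A stood above groups B (5.10 to 6.03) and C (5.56 to 6.06), by 1.40 (SE 0.25, adjusted p = 0.128) and 1.07 (SE 0.25, adjusted p = 0.388). Pbk, a mitotic kinase, read 7.68, 8.09 and 7.46 in group A and between 6.92 and 7.92 in the controls, with a ratio of 0.21 (SE 0.28). It exceeded group B by 1.76 (SE 0.31, adjusted p = 0.128) and group C by 1.55 (SE 0.31, adjusted p = 0.278). With the authors' normalized values these differences from groups B and C shrank to 0.42 and 0.35 for Birc5 and to 0.78 and 0.70 for Pbk, and without background correction to 0.59 and 0.48 and to 0.96 and 0.85. The members with the smallest p against controls were Aurka, the Aurora A spindle kinase, with −0.34 (SE 0.22), and the transcription factor gene Foxm1 with −0.24 (SE 0.19). At an unadjusted p under 0.05, 9 of the 14 genes exceeded their group B level (1.62% of all probes) and 6 exceeded their group C level (1.91%), with 0 lower in either. With array weights, and under no other alternative, the differences of Top2a, Birc5, Pbk and Prc1 from group B were called, at adjusted p from 0.00335 to 0.007.

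The DNA replication genes, which build and copy new strands in S phase, had 20 of 22 members tested, 13 with a positive and 7 with a negative ratio and a median of 0.12. With control replicate 4 left out these were 11 and 9 with a median of 0.01. The median was −0.33 in group B and −0.60 in group C, and −0.35 in group C without its replicate 2. One member was without overlap between group A and controls (5% of the list, 1.33% of all probes). This was Rrm2, the small subunit of ribonucleotide reductase that makes deoxyribonucleotides. It read 6.32, 6.17 and 6.09 in group A and 5.90, 5.75, 6.08, 4.81 and 5.30 in controls, so that the nearest mice were 0.01 apart. Its ratio was 0.62 (SE 0.25, unadjusted p = 0.0239, adjusted p = 1), or 0.43 without control replicate 4 and 0.23 without background correction, and the probe was detected on 6 of the 14 arrays. The next members were Ung, the uracil DNA glycosylase, with 0.26 (SE 0.21) and Mcm5, a subunit of the replicative helicase, with 0.23 (SE 0.26). At an unadjusted p under 0.05, 7 of the 20 genes exceeded their group B level (1.62% of all probes) and 13 their group C level (1.91%), with 0 lower in either. Without group C replicate 2 the 13 fell to 5 (2.01% of all probes). Of the 11 tested genes of double-strand break repair, 7 had positive and 4 negative ratios with a median of 0.06 (8, 3 and 0.02 without control replicate 4). Lig4, the ligase of end joining, was the 1 without overlap (9.09% of the list, 1.33% of all probes, 5.98 to 6.07 in group A, 5.14 to 5.90 in controls), with a ratio of 0.46 (SE 0.21, unadjusted p = 0.0499) beside 0.44 in each of groups B and C, and 0.16 without background correction.

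**Figure D3:**
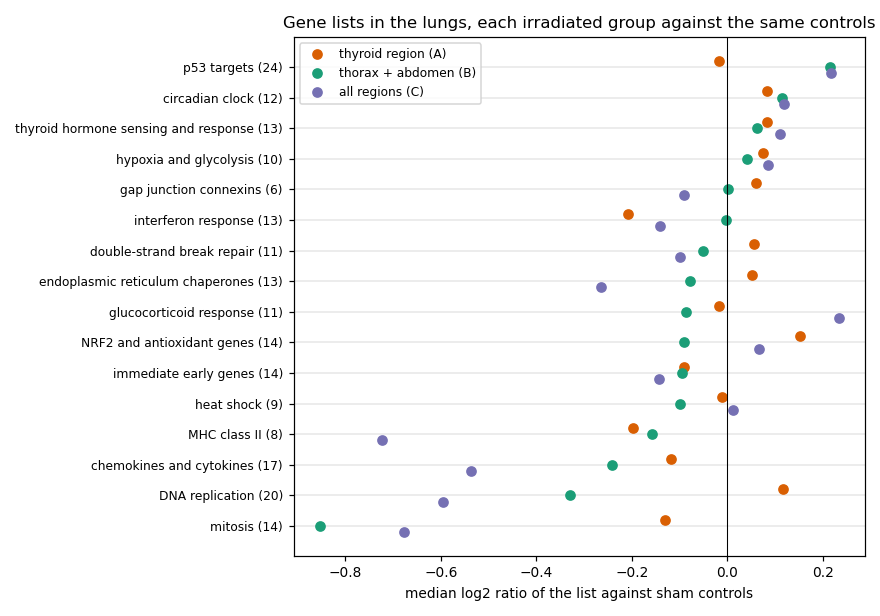
Median log2 ratio of each response list against the same 5 controls (horizontal axis) for groups A, B and C, with the number of tested genes in brackets. For mitosis, DNA replication and p53 targets the points of group A lie nearer 0 than those of groups B and C (−0.13, 0.12 and −0.02), while for interferon response the point of group A lies farthest from 0 (−0.21).

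Nr1d1 separated group A from the controls on both of its probes. It encodes the haem-binding nuclear receptor REV-ERB alpha, a repressor in the second loop of the circadian clock. Nr1d1 was the only gene with 2 probes among the 17 named probes that were without overlap and past a log2 ratio of 0.58. The brighter probe read 9.30, 9.31 and 9.64 in group A and 8.91, 8.77, 8.69, 8.04 and 8.83 in controls. The dimmer probe read 8.06, 8.33 and 8.18 in group A and 7.43, 7.49, 7.31, 6.47 and 7.17 in controls. On both probes every mouse of group A was above every control, and control replicate 4 was the lowest lung. The ratios were 0.77 (SE 0.20, 95% interval 0.33 to 1.20, 1.7-fold, unadjusted p = 0.00213) and 1.02 (SE 0.24, 95% interval 0.51 to 1.52, 2.02-fold, unadjusted p = 0.000717), with an adjusted p of 1 for each. They did not pass the test over all probes. Leaving out each mouse in turn gave 0.61 to 0.83 and 0.84 to 1.10. The dimmer probe gave 0.63 with the authors' normalized values and 0.68 without background correction.

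The clock runs on the activators BMAL1 and CLOCK, which bind E-boxes in the promoters of Nr1d1, the Per genes and Ciart. The products of the Per genes and of Ciart then repress these activators, and REV-ERB alpha acts in the second loop. The 250 bases before the start of 3 such genes are shown because such elements are known to drive these genes together. Nr1d1 was without overlap in group A and Ciart and Per1 were not, and the difference between the genes was not tested. The windows are RefSeq promoters of build GRCm38.p6, written 5′ to 3′ on the gene's own strand, and capitals mark the E-box CACGTG and, on either strand, its variant AACGTG.
Nr1d1, chr11:98775378-98775627, minus strand: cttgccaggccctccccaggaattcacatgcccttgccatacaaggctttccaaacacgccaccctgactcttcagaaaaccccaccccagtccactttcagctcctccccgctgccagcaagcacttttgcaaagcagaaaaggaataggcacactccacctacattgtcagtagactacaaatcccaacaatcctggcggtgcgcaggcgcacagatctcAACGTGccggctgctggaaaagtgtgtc
Ciart, chr3:95882229-95882478, minus strand: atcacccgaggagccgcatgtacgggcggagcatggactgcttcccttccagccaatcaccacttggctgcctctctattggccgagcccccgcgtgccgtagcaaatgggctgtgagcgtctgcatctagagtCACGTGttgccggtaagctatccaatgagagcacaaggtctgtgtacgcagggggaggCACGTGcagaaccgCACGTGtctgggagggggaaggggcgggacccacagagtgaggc
Per1, chr11:69098699-69098948, plus strand: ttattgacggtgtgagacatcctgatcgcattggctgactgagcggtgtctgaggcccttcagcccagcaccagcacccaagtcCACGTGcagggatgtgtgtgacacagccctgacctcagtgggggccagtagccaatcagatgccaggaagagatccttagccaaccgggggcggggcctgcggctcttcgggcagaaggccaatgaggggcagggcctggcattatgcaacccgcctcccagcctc

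The Nr1d1 window held 1 variant element that begins 28 bases before the start and 0 copies of CACGTG, the Ciart window 3 copies and the Per1 window 1. CACGTG stood in 6.02% of 32851 such windows and the variant in 3.85%. Of the 12 clock genes tested, 10 had a window, 3 with CACGTG and 2 with the variant. A match describes the letters only.

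The other clock genes did not separate. Of 17 listed genes 12 were tested, 7 with a positive and 5 with a negative ratio and a median of 0.08 (0.11 in group B and 0.12 in group C). They became 8 and 4 with a median of 0.03 without control replicate 4. Nr1d1 was the 1 member without overlap (8.33% of the list, 1.33% of all probes) and the 1 at an unadjusted p under 0.05 (1.09% of all probes). Dbp, a transcription factor that is a direct output of the clock, read 13.20, 13.31 and 13.34 in group A and 12.56 to 13.22 in controls, with a ratio of 0.35 (SE 0.31). Per1, a repressor of the first loop, had −0.18 (SE 0.22) and Per2 had −0.05 (SE 0.17). Ciart, a repressor of CLOCK and BMAL1, had 0.17 (SE 0.31) and 0.40 on its 2 probes. The difference of Nr1d1 between group A and group B was 0.49 (95% interval −0.00 to 0.98, adjusted p = 0.944) and between group A and group C 0.64 (95% interval 0.15 to 1.12, adjusted p = 0.949) for the brighter probe. The hour of day at which each mouse was killed was not analysed here, and its part in these values was not tested. The 3′ end of Nr1d1 overlaps that of Thra on the opposite strand, and Thra had a ratio of 0.08 (SE 0.21).

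**Figure D4:**
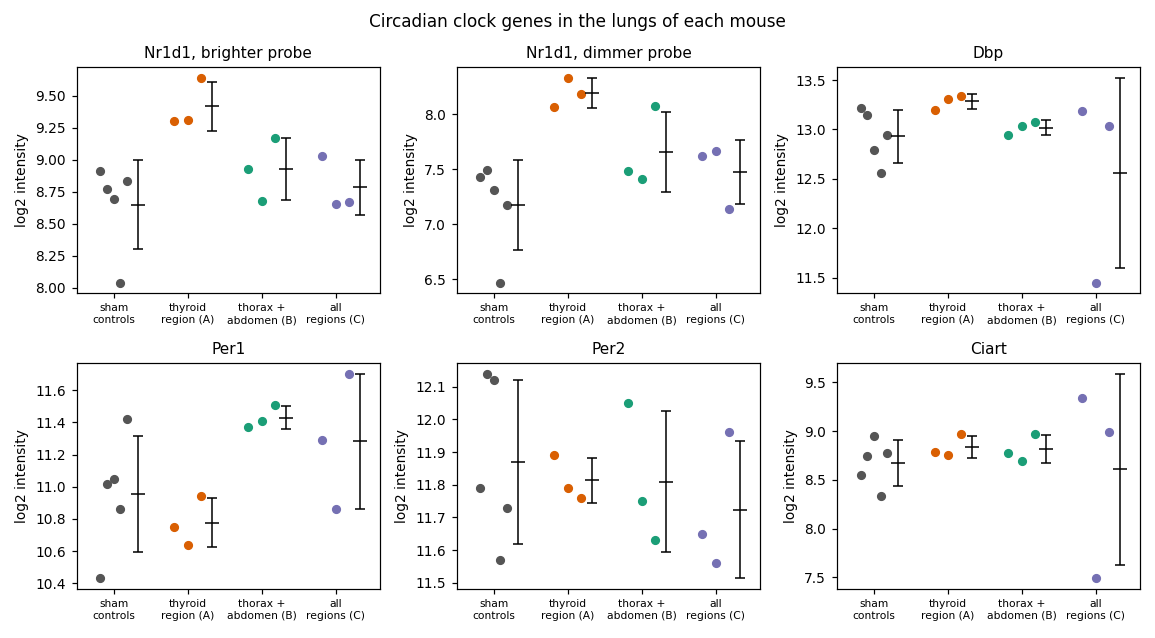
Log2 intensity (vertical axis, a separate scale in each panel) of both Nr1d1 probes and of Dbp, Per1, Per2 and Ciart in the lungs of each mouse, with the group mean and SD beside the points. In both Nr1d1 panels the 3 mice of group A lie above the 5 controls, and in the Per1 and Per2 panels they lie within or close to the control range.

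Besides Nr1d1 and Rrm2, 14 genes were named by the rule for the probes with the smallest p, and an adjusted p of 1 held for each. In all, 20 probes (0.15%) were without overlap and past 0.58, 17 of them with a gene symbol. The 7 further genes above the controls were Plekha6, Cd320, Hmbox1, Lrrn4cl, Mpg, Tmem35a and Dusp4. Plekha6, a pleckstrin-homology protein of cell junctions, read 6.97, 6.85 and 6.85 in group A and 5.67 to 6.15 in controls, a ratio of 0.94 (SE 0.23, unadjusted p = 0.00103). Its groups were 0.70 apart at the nearest mice. Cd320, the receptor that takes up transcobalamin-bound vitamin B12, read 6.20, 5.93 and 5.69 against 4.57 to 5.64, with a ratio of 0.88 (SE 0.22). Hmbox1, a homeobox protein that binds telomeric repeats, read 6.04, 5.94 and 6.12 against 4.88 to 5.57, with a ratio of 0.78 (SE 0.21). The probes of Cd320 and Hmbox1 were each detected on 8 of the 14 arrays. Their control means of 5.065 and 5.255 were near the background, and both genes are given as a description only. The remaining 4 had ratios from 0.62 (Mpg, a DNA glycosylase that removes alkylated bases) to 0.77 (Tmem35a, a chaperone of nicotinic receptors). The Tmem35a probe was detected on only 5 of the 14 arrays. It read 5.92, 6.18 and 5.99 in group A, near the background, and is given as a description only. A brighter probe of Mpg gave 0.31 (unadjusted p = 0.138), with overlap. Dusp4 fell from 0.64 to 0.40 without group A replicate 3. Of these genes, Lrrn4cl, Cd320 and Dusp4 stood about as far from the same controls in group C, but nearer to them in group B. The others lay nearer to the controls in both groups than in group A. The ratios of groups B and C were 0.37 and 0.74 for Lrrn4cl, beside 0.71 in group A. They were 0.53 and 1.004 for Cd320, beside 0.88, and 0.25 and 0.65 for Dusp4, beside 0.64.

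The 7 genes below the controls were led by Eef1a1, the translation elongation factor, which had 1 tested probe. This probe read 4.68, 5.65 and 6.57 in group A and 6.87, 7.08, 6.82, 7.37 and 7.75 in controls. Its lowest value was close to 4.59, the median of the probes detected on 0 arrays. What share of the Eef1a1 RNA this probe reports was not tested. The mice of group A spread over a wider range than the controls, and the ratio was −1.55 (SE 0.35, 95% interval −2.29 to −0.80, unadjusted p = 0.000533). Without background correction it was −0.71. The probe of Dynlt1b, a dynein light chain, met the detection limit on exactly 3 of the 14 arrays. It read 4.64 to 5.07 in group A and 5.32 to 5.89 in controls, which is near the background, and is given as a description only. Blnk, the adaptor of B cell receptor signalling, had −0.96 on the named probe and 0.04 on a brighter one, and Baiap2, an organiser of actin at the membrane, −0.73 and −0.10. The named Blnk probe was detected on only 5 of the 14 arrays. H2-K1, a class I histocompatibility molecule, had −0.89 on the named probe, with control replicate 4 at 9.26 and the other controls at 7.54 to 7.70, and −0.30 on a brighter one. The named probe gave −0.56 without control replicate 4. Trp53i11 had −0.69 (SE 0.24), and the same −0.69 in group B, and Rasl11a, a small GTPase, −0.70 (SE 0.34). Without background correction the ratio shrank by over 1.5 times for each gene named by this rule other than Nr1d1, H2-K1 and Rasl11a. It was then 0.44 for Plekha6, 0.31 for Cd320, between 0.23 and 0.27 for Hmbox1, Lrrn4cl, Mpg, Tmem35a, Rrm2 and Dusp4, and between −0.35 and −0.26 for Blnk, Trp53i11, Baiap2 and Dynlt1b.

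Genes that sense thyroid hormone or respond to it were examined because the gland itself was irradiated. Of 22 listed genes 13 were tested, 7 with a positive and 6 with a negative ratio, 0 called, 0 at an unadjusted p under 0.05, and a median of 0.08 (0.06 in group B and 0.11 in group C). They became 9 and 4 with a median of 0.07 when control replicate 4 was left out. Klf9, a zinc-finger gene with a thyroid hormone response element, read 12.34, 13.06 and 12.77 in group A and 12.61 to 12.85 in controls. The mice of group A lay on both sides of the controls, and the ratio was −0.02 (SE 0.16, 95% interval −0.36 to 0.33). Thra had 0.08 (95% interval −0.38 to 0.54). The single probes of Thrb and of Dio2, the deiodinase that activates thyroxine, were detected on 0 lung arrays. The members with the smallest p were Rxra, the partner receptor, with −0.31 (SE 0.24) and Gpd2, mitochondrial glycerol-3-phosphate dehydrogenase, with 0.37 (SE 0.29). Gpd2 was the 1 member without overlap (7.69% of the list, 1.33% of all probes, 8.02 to 8.42 in group A, 7.60 to 7.96 in controls), and a dimmer probe of it gave 0.04. Thrsp, a lipogenic gene named for its hormone response, had the highest ratio, 1.33 (SE 1.12), which rested on 1 mouse: group A read 6.39, 6.92 and 10.66 and the controls 5.72 to 7.78. In that mouse, group A replicate 3, the 5 tested fat genes averaged 9.47, against 6.73 and 6.96 in its group and 5.96 to 7.61 in controls. Their part in the Thrsp value was not tested.

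The defining genes of lung tissue were present in both groups. Sftpc, the surfactant protein C gene of alveolar type 2 cells, read 14.39 to 14.63 in group A and 14.54 to 14.69 in controls, a ratio of −0.10 (SE 0.13). Scgb1a1, the secretoglobin of club cells, had 0.06 (SE 0.12), Ager of alveolar type 1 cells −0.14 (SE 0.14) and Pecam1 of endothelium −0.08 (SE 0.20). Over the lists, 1 of 10 alveolar type 2 genes was positive with a median of −0.11, 3 of 10 endothelial genes with −0.08 and 4 of 10 fibroblast and smooth muscle genes with −0.05, all with 0 called. Without control replicate 4 these were 2 with −0.08, 0 with −0.14 and 3 with −0.09, and the endothelial receptor gene Tie1 reached an unadjusted p of 0.0451 (−0.38, adjusted p = 1). Sftpb, a second surfactant gene, had −0.24 (SE 0.18) and Ramp2, an adrenomedullin receptor component of endothelium, −0.27 (SE 0.15). Foxj1, the master regulator of motile cilia, had −0.35 (SE 0.33), the lowest ratio of its list. The 9 tested ciliated cell genes had 4 positive and 5 negative ratios with a median of −0.02. Without control replicate 4 these were 5 and 4 with 0.04. None of the 4 thyroid and parathyroid genes and none of the 7 liver genes with a probe was detected on the 3 arrays needed, among them Tg, thyroglobulin, and Alb, albumin, each on 0 of the 14 arrays.

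Genes of neighbouring tissue spread widely between mice of 1 group. The 9 tested heart muscle genes averaged 9.49, 8.44 and 9.58 in group A and 8.28, 9.97, 6.30, 8.22 and 10.06 in controls, with a median ratio of 0.68. All 3 mice of group A lay inside the control range. Myl7, the atrial myosin light chain, read 9.56 to 10.94 in group A and 6.26 to 11.36 in controls, and Nppa, the atrial natriuretic peptide, 6.80 to 11.64 and 4.49 to 10.31. Scgb3a1, a secretoglobin of the large airways, read 11.16, 11.27 and 11.34 in group A and 8.33, 12.48, 5.77, 12.67 and 9.81 in controls. The 3 mice of group A lay close together inside the wide range of the controls, and the ratio was 1.45 (SE 1.55). Bpifa1, a secreted protein of the upper airway chosen after its values were seen, read 12.02 to 13.17 and 6.59 to 14.26. The fat genes Adipoq (adiponectin) and Cidea (a lipid droplet protein) had ratios of 1.47 (SE 1.35) and 1.23 (SE 1.05), with group A replicate 3 at 12.09 and 10.58.

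The 3 mice of group A also differed among themselves. Replicate 1 had the lowest average of group A over alveolar type 2 genes (12.34 against 12.89 and 12.87), macrophage genes (8.47 against 9.48 and 9.54) and B lymphocyte genes (6.78 against 8.06 and 7.50), and the highest over ciliated cell genes (9.77 against 8.87 and 8.72) and skeletal muscle genes (7.63 against 6.18 and 6.42). Replicate 3 had the highest average over fat genes. The averages of 12.34, 8.47, 6.78, 9.77 and 7.63 in replicate 1 and of 9.47 in replicate 3 lay outside the range of the 5 controls. Control replicate 5 was near replicate 1 over alveolar type 2 (12.39), macrophage (8.48), ciliated cell (9.51) and skeletal muscle genes (7.22). It was less near over B lymphocyte genes (7.29). The 2 lungs had a correlation of 0.982. Whether the lungs of group A differed in the tissue taken was not tested.

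**Figure D5:**
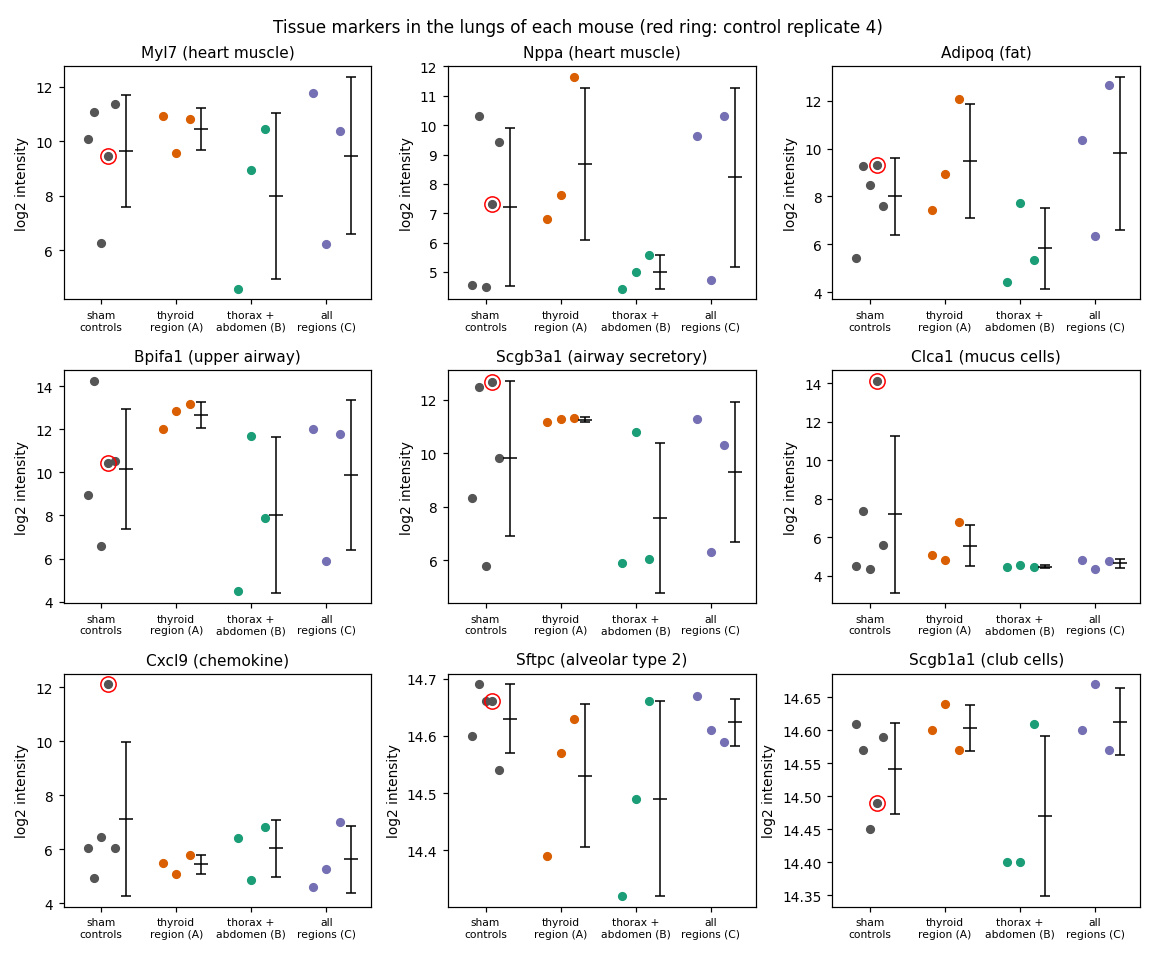
Log2 intensity (vertical axis, a separate scale in each panel) of markers of heart muscle, fat, airway, mucus cells, a chemokine, alveolar type 2 cells and club cells in the lungs of each mouse, with the group mean and SD beside the points and control replicate 4 ringed in red. Heart, fat and airway markers spread widely within the controls (Nppa from 4.49 to 10.31), Sftpc stays between 14.32 and 14.69 in all 14 lungs, and for Clca1 and Cxcl9 control replicate 4 stands alone.

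Control replicate 4 stood apart in immune genes. Its level of Clca1, a protein of mucus-secreting cells, was 14.13 against 4.37 to 7.38 in the other controls and 4.82 to 6.81 in group A, and that of Cxcl9, a chemokine induced by interferon gamma, was 12.12 against 4.92 to 6.47 and 5.08 to 5.78. Ubd, Ccl8 and Cd177 were at 12.47, 11.49 and 12.80 there (these and Clca1 were chosen after their values were seen). With this mouse, all 8 tested MHC class II genes, which present antigens to T cells, had negative ratios in group A with a median of −0.20. Without it, 5 were positive and 3 negative with a median of 0.10. H2-Aa, a class II alpha chain, read 6.92, 6.90 and 6.79 in group A and 7.56, 6.89, 7.33, 8.62 and 7.22 in controls, a ratio of −0.65 (SE 0.32, unadjusted p = 0.0563), and Cd74, the invariant chain, had −0.24 (SE 0.26). The 13 interferon response genes had 3 positive and 10 negative ratios with a median of −0.21, and 4 and 9 with −0.10 without control replicate 4. Their leading members were Ddx58, the RNA sensor RIG-I, with −0.42 (SE 0.21) and Oasl2, an oligoadenylate synthetase-like protein, with −0.42 (SE 0.30). The 17 chemokine and cytokine genes had 4 positive and 13 negative ratios with the mouse and 9 and 8 without it. Without it, the chemokine gene Ccl17 of this list was at 1.05 (SE 0.47, unadjusted p = 0.0437). Krt79 of the macrophage list was then at 0.75 (SE 0.28, unadjusted p = 0.0204), and neither was called. Cd3d, a chain of the T cell receptor complex, read 6.86, 5.52 and 6.29 in group A and 5.92 to 7.50 in the controls other than replicate 4, which was at 8.98.

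Stress and hormone lists stayed near 0. The 9 heat shock genes had a median of −0.01, with Hspb1, a small heat shock protein, at −0.29 (SE 0.16) and Hspe1, the mitochondrial co-chaperonin, at 0.23 (SE 0.17). The 13 endoplasmic reticulum chaperone genes had a median of 0.05, with Ddit3, the stress transcription factor CHOP, at 0.45 (SE 0.23) and Pdia3, a disulfide isomerase, at 0.46 (SE 0.30). Of the 14 NRF2 and antioxidant genes 11 were positive with a median of 0.15, and their average was 10.42 in group A replicate 1, against 9.83 and 9.48 in its group and 9.39 to 10.26 in controls. The 11 glucocorticoid response genes had a median of −0.02, among them Fkbp5, a chaperone of the glucocorticoid receptor, at 0.35 (SE 0.33), Sgk1, a kinase of sodium transport, at −0.32 (SE 0.22) and Tsc22d3, an anti-inflammatory mediator, at −0.14 (SE 0.22). The 14 immediate early genes had a median of −0.09. The 10 hypoxia and glycolysis genes had a median of 0.07, with Car9, a carbonic anhydrase, at −0.41 (SE 0.25), and the 6 connexin genes had 0.06, with Gjb2, a connexin of epithelia, at 0.07 (SE 0.31). In each of these lists 0 genes were called, 0 reached an unadjusted p under 0.05 and 0 were without overlap. Without control replicate 4 the medians were −0.02 for heat shock, glucocorticoid response and immediate early genes, 0.08 for endoplasmic reticulum chaperones, 0.06 for NRF2 genes (10 of 14 positive), 0.13 for hypoxia and glycolysis and 0.12 for connexins, and Egln3, an oxygen-sensing hydroxylase of the hypoxia list, was at 0.90 (SE 0.35, unadjusted p = 0.0245, adjusted p = 1).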

How the data were processed

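Lung RNA was hybridized to Illumina MouseRef-8 v2 BeadChips, 1 array per mouse, and RNA integrity was checked by the authors. The first deposited table gives 1 intensity per probe and array, summarized but not normalized by the authors, beside a deposited detection p-value whose calculation is not described in the sources used here. A second deposited table holds intensity values that the authors quantile-normalized over the series in the BioArray Software Environment, and was used as an alternative. The files name no genome build or slide.

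From the table without normalization, signals were background-corrected with limma's nec (negative control signal inferred from the detection p, offset 16), quantile-normalized within the 14 lung arrays and expressed as log2. The test covered the 13356 probes whose detection p was under 0.01 on 3 or more lung arrays. In limma 3.58.1 (R 4.3.3) the 4 lung groups shared 1 linear model with empirical Bayes moderation. Calls needed p under 0.01 after Benjamini-Hochberg adjustment and an absolute log2 ratio of 0.58 or more, the thresholds of the methods, which name no test. Every p is from limma and two-sided. The fit was tested on simulated data. Same-numbered mice of group A and the controls did not deviate together (correlations −0.48, −0.18 and 0.20), so numbers were not taken as pairs.

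Of the probes, 23978 carry 1 gene symbol and 1719 none, and 23962 Entrez identifiers were found in RefSeq's gene table. For a gene with several probes the brightest stands for it in a list. Of 462 list entries in 34 lists, 418 have a probe. Named were, in each direction, up to 12 probes with the smallest p among those without overlap and past 0.58, for each list the 2 genes with the smallest p, and a set fixed by name. Some other list members were given besides, among them Gadd45a and Dcxr. The comparison, the lists and the fixed genes were chosen with earlier results of these data known. Alternatives changed the normalization, background, filter, fit and mice.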

Additional observations from a re-analysis of the deposited data

Results flagged for a closer look

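Of the 74 probes of genes given by value that were examined, 3 had 1 control lung far from the other 4 by Dixon's criterion for 5 samples, and each time it was control replicate 4. The 74 probes share the same 5 control lungs, so this count was not set against chance. Control replicate 4 also had 115 probes at least 2-fold above all other lungs. Cxcl9 was at 12.12 there and at 4.92 to 6.47 in the other controls. H2-K1 was at 9.26 on its named probe and at 7.54 to 7.70 in the others. Nr1d1 was at 8.04 on its brighter probe and at 8.69 to 8.91 in the others, and the ratio of group A against controls stayed positive without this mouse. What set this lung apart was not tested.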

How the results depend on the processing

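The count of 0 regulated transcripts in group A against controls held under all 12 alternatives that could be run and when each of the 8 mice was left out. Array weights, which give noisier arrays less say, moved the other 2 counts: group A then differed from group B in 13 probes and from group C in 2, namely Cdkn1a, Phlda3, Top2a, Birc5, Pbk, Prc1, Clspn, Elmo1 and a probe without symbol against group B and Cdkn1a against group C. The cause was not tested. Leaving out single mice left each of the 3 counts at 0. With the replicate number as a block the 3 counts were 0. The probes at an unadjusted p under 0.05 numbered 145 in group A against controls, 631 with no detection filter, 81 when detected on all lung arrays, 512 with array weights, 235 with the replicate block, 554 with the authors' values, no filter and only the 2 groups in the fit, and 144 to 296 when mice were left out. The slide as a block was not run, because the headers name no slide.

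Of 84 gene values, 79 kept their sign under the alternatives other than leaving out mice. With array weights Gjb2 was 0, Klf9 0.12, Mdm2 −0.03 and Thra −0.08, and with the replicate block Prc1 was −0.04. When mice were left out, the ratio against controls crossed 0 for Chil3 (−0.74 to 0.17), Gadd45a (−0.04 to 0.43), Gjb2 (−0.14 to 0.18), Klf9 (−0.19 to 0.18), Mdm2 (−0.17 to 0.15), Pecam1 (−0.19 to 0.07), Thra (−0.10 to 0.28), Tsc22d3 (−0.27 to 0.08), Zmat3 (−0.03 to 0.25), Phlda3 (−0.18 to 0.06), Ccng1 (−0.15 to 0.03), Nppa (0 to 2.42), Thrsp (0 to 2.14), Ltf (−0.07 to 1.32), Per2 (−0.13 to 0.01), Myl7 (−0.06 to 1.23) and Prc1 (−0.01 to 0.19). With 3 mice against 5, the unadjusted 95% interval of the median probe reached 0.47 to either side, a ratio of −1.55 (Eef1a1) was not called, and probes near the background have ratios that depend on its correction. The list counts and the probes without overlap, without control replicate 4, and the list counts without group C replicate 2 were alternatives chosen after seeing the data.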
